A study of Mus musculus with 6 samples.

Results

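The genes of the apical actin and keratin cytoskeleton were followed in liver of KRAP-/- mice: the cytoplasmic actins Actb and Actg1, the membrane linkers Ezr, Rdx and Msn, the motor Myo5b, the keratins Krt8 and Krt18, and the junction proteins Ctnnd1 and Cdh1. These 10 genes were taken as a named list, chosen with earlier results of these data known. Their shares beside those of all probe sets are therefore a description and not a test. Every probe set annotated to exactly 1 of their symbols was read, which gave 24 of the 45101 probe sets of the array. Of the 24, 3 were control probe sets for beta-actin, and of the other 21, 20 were bright enough to be fitted. The KRAP-/- mice, in which exons 11 to 16 of the KRAP gene (now Itprid2) are replaced by a neomycin resistance cassette, carry the deletion in every tissue, and the line was backcrossed 6 times to C57BL6/J. The mice were kept on normal chow to an age of 32 weeks, and liver total RNA from 3 of each genotype, in littermate pairs 1, 2 and 3, went onto Affymetrix Mouse Genome 430 2.0 arrays, 1 array per mouse. Arrays of brown adipose tissue were not analysed here. The comparison asked how the RNA levels of these genes differed between KRAP-/- liver and wild-type liver.

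KRAP is an actin-interacting protein found under the apical membrane of epithelial cells. In hepatocytes the apical membrane is the wall of the bile canaliculus, a narrow channel between neighbouring cells that carries bile. A belt of actin filaments surrounds it, ERM proteins (ezrin, radixin and moesin) tie the filaments to the membrane, myosin Vb brings recycling vesicles there, and a sheath of keratin 8 and keratin 18 filaments lies beneath. Cadherin-based adherens junctions, held at the surface by p120 catenin, join the cells beside the canaliculus. Whole liver also holds bile duct cells, endothelial cells, Kupffer cells and stellate cells, and in such bulk RNA fewer cells of a type and less RNA per cell cannot be told apart.

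Signals are given as multiples of the median of their own array, in the order of pairs 1, 2 and 3, and a log2 fold change is KRAP-/- minus wild-type, fitted with limma and blocked by littermate pair. Adjusted p-values are Benjamini-Hochberg values over the 28531 probe sets fitted, with 0.05 as the threshold. The median signal was 20.2 to 23.4 on the KRAP-/- arrays and 19.1 to 22.6 on the wild-type arrays. The 1 probe set named for Itprid2 read 21.6, 21.3 and 20.0 in KRAP-/- liver and 23.9, 24.5 and 22.3 in wild-type liver. The fitted difference was −0.17 on the log2 scale (SE 0.09, adjusted p = 0.44). The sources used here do not place it inside or outside the deleted exons, so it does not check the genotype. Hepatocyte markers, 6 genes with albumin at 578 to 664, summed to 2875 to 3316 in KRAP-/- liver and 3024 to 3091 in wild-type liver, and none passed the test (0 of 6 at an unadjusted p under 0.05 as well).

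Most of the 10 genes read slightly lower in KRAP-/- liver, and 1 passed the test. Ctnnd1, which encodes p120 catenin, fell by 0.65 on the log2 scale (SE 0.12, n = 3 pairs, adjusted p = 0.039). That is 1 of 20 member probe sets called lower, against 0.978 percent of all probe sets, and 0 of 20 called higher, against 0.431 percent. At an unadjusted p under 0.05, 8 of 20 were lower (9.3 percent of all probe sets) and 1 of 20 was higher (5.58 percent). The 8 include every Krt8 probe set, and the 1 higher is Actb at 1419734_at. Fitted values lay below 0 at 16 of 20 member probe sets, against 55.2 percent of all, and 11 of 20 were lower in all 3 pairs, against 22.4 percent. The median log2 fold change was −0.27 for the member probe sets and −0.04 for all probe sets. With quantile normalization or with the values as deposited, the members' median was −0.22, with 15 of 20 below 0. By a rule of size alone, a 1.5-fold difference in the same direction within all 3 pairs, 0 of 21 member probe sets qualified, against 2.88 percent of all probe sets in the lower and 2.3 percent in the higher direction.

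**Figure D1:**
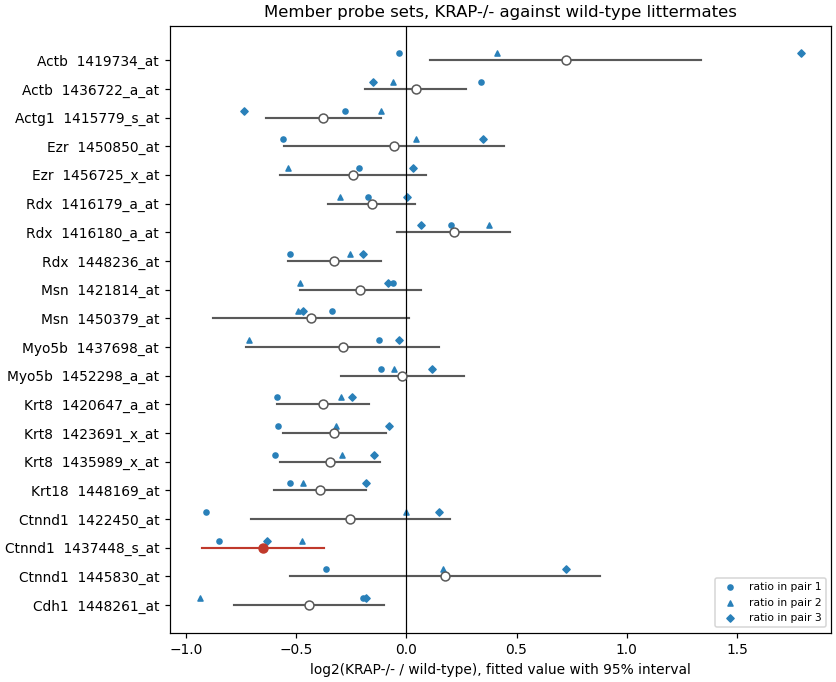
Log2 fold change of KRAP-/- against wild-type liver (x axis) at each of the 20 member probe sets (y axis), as the limma value with its 95% interval, with the ratios of the 3 littermate pairs as small symbols. The filled red point, Ctnnd1 at 1437448_s_at, is the 1 that passed the threshold, and 16 of 20 points lie below 0.

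Read at the brightest probe set of each gene, 6 of 10 genes were lower in KRAP-/- liver in all 3 pairs (26.9 percent of the 13217 genes tested), and 0 of 10 were higher in all 3 (11.6 percent). The groups did not overlap for 3 of 10 (Krt18, Ctnnd1 and Cdh1), with KRAP-/- liver lower, against 15.2 percent of all genes. Within the pairs, the median ratio of the 10 genes was 0.866, 0.768 and 0.902, beside 0.953, 0.958 and 0.942 over all genes. Pair 2 had all 10 genes lower in the KRAP-/- mouse, pair 1 had 9, and pair 3 had 7. The median log2 fold change was −0.29 over the 10 genes and −0.08 over all genes. At an unadjusted p under 0.05, 5 of 10 genes were lower, against 11.8 percent of all genes, and 0 of 10 were higher, against 3.93 percent.

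**Figure D2:**
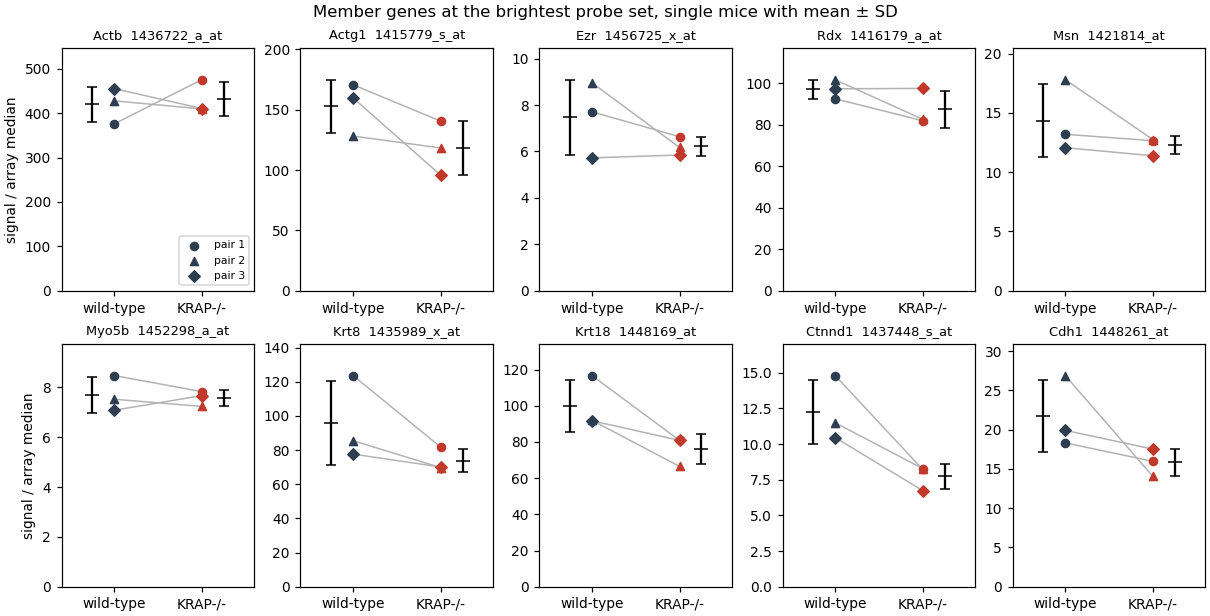
Signal in units of the array median (y axis, from 0) of each of the 10 genes at its brightest probe set in wild-type and KRAP-/- liver (x axis), with 1 symbol per mouse, lines joining littermates, and bars for the mean ± SD of 3 mice. Krt18, Ctnnd1 and Cdh1 show no overlap between the groups, and wild-type mouse 1 is the highest of the 6 mice for Actg1, Myo5b, Krt8, Krt18 and Ctnnd1.

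Actb encodes beta-actin, the most abundant actin of non-muscle cells. Its brightest probe set, 1436722_a_at, had signals of 475, 409 and 410 in KRAP-/- liver and 376, 428 and 455 in wild-type liver. The groups overlapped, with the highest value in KRAP-/- mouse 1 and the lowest in its wild-type littermate. On the log2 scale the difference was 0.04 (SE 0.10, 95% interval −0.19 to 0.27, adjusted p = 0.88), and it was −0.11 without pair 1.

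The dimmer Actb probe set, 1419734_at, read 20.8, 22.2 and 66.3 in KRAP-/- liver and 21.2, 16.7 and 19.1 in wild-type liver. KRAP-/- mouse 3 stood apart, at 2.99 times the highest of the other 5 arrays, whereas the other probe sets for the same gene put that mouse inside the range of the rest. The log2 fold change was 0.72 (SE 0.27, adjusted p = 0.26). It was 0.19 (SE 0.13, adjusted p = 0.55) without pair 3 and 1.10 (adjusted p = 0.018) without pair 1, so the array of KRAP-/- mouse 3 decided this value. On that array 20 of the 28531 probe sets fitted, or 0.0701 percent, stood at least 2-fold above all 5 other arrays, and on the other arrays 18 to 40 did.

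The 3 beta-actin control probe sets lie toward the 3′ end, in the middle and toward the 5′ end of the mRNA, and the 5′ signal drops relative to the 3′ signal where RNA is degraded or copied incompletely. The 3′ signals were 432, 371 and 346 in KRAP-/- liver and 322, 397 and 388 in wild-type liver, and the 5′ signals were 189, 162 and 149 and 122, 198 and 190. Wild-type mouse 1 had the lowest signal at all 3 positions. The ratio of 3′ to 5′ was 2.29, 2.28 and 2.32 in KRAP-/- liver and 2.65, 2.01 and 2.05 in wild-type liver, so the highest and the lowest ratios were both in wild-type mice. The same wild-type mouse 1 had the highest signals of the 6 mice for Krt8, Krt18, Actg1, Ctnnd1 and Myo5b at their brightest probe sets. The part of RNA integrity in those values was not tested.

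**Figure D3:**
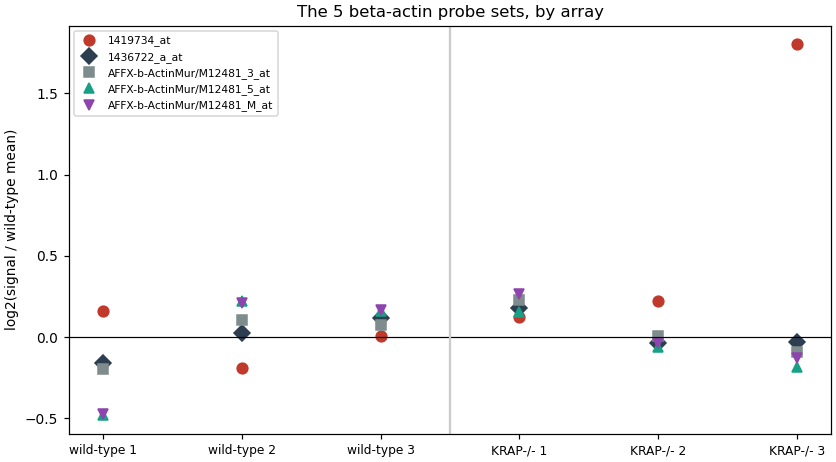
Log2 of the signal over the wild-type mean (y axis) at the 5 beta-actin probe sets on each of the 6 arrays (x axis), with 1 symbol per probe set. The 1419734_at point of KRAP-/- mouse 3 stands alone at the top, and the control probe sets of wild-type mouse 1 are the lowest points.

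Actg1 encodes gamma-actin, which differs from beta-actin by only a few residues near the amino end. Its probe set, 1415779_s_at, had signals of 141, 118 and 95.7 in KRAP-/- liver and 171, 128 and 160 in wild-type liver. Each KRAP-/- mouse was below its littermate, but the groups overlapped, because wild-type mouse 2 was below KRAP-/- mouse 1. The ratio was 0.823, 0.923 and 0.599 in the 3 pairs. On the log2 scale the difference was −0.38 (SE 0.12, 95% interval −0.64 to −0.12), with an unadjusted p of 0.0095 and an adjusted p of 0.17. Leaving out pair 3 gave −0.20 (adjusted p = 0.38) and leaving out pair 2 gave −0.51 (adjusted p = 0.054). A name ending in _s_at marks probes shared by transcripts of different genes, so the signal may include other actins.

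The 250 bases before the annotated start of Actg1 are shown because actin genes are known targets of serum response factor, which binds the CArG box. RefSeq promoter sequences were found for 7 of the 10 genes, as 9 windows. Capitals mark a CArG box and GC boxes (GGGCGG), searched on both strands, with a pair of the GC boxes overlapping each other.

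Actg1 (GRCm38.p6, chr11:120348496-120348745, minus strand): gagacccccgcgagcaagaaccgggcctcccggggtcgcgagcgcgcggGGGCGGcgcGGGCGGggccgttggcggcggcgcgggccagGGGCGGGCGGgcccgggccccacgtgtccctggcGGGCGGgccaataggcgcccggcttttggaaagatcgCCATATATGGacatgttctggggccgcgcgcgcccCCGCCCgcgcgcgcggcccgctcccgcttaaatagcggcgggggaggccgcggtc

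This window held 1 CArG box and 6 GC boxes, and it was the only one of the 9 windows with a CArG box. Of all 32851 windows of this length, 1.47 percent held a CArG box and 32.7 percent a GC box. GC boxes were also found before Ezr (2) and Msn (3), and an AP-1 site (TGANTCA, in 6.75 percent of all windows) before Ezr (1). A match is a description of the letters and not evidence of binding.

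Ezrin, radixin and moesin link actin filaments to membrane proteins, and radixin is the main ERM protein of hepatocytes. Of their 7 probe sets limma called 0. At an unadjusted p under 0.05, 1 of the 7 was lower, against 9.3 percent of all probe sets, and 0 were higher, against 5.58 percent. The brightest Rdx probe set, 1416179_a_at, read 82.0, 82.7 and 97.6 in KRAP-/- liver and 92.6, 102 and 97.4 in wild-type liver. The groups overlapped through KRAP-/- mouse 3, and the log2 fold change was −0.16 (SE 0.09, adjusted p = 0.45).

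The 3 Rdx probe sets did not move together. Rdx at 1448236_at read 52.6, 56.6 and 56.9 in KRAP-/- liver and 75.8, 67.5 and 65.3 in wild-type liver. All 3 KRAP-/- values were below all 3 wild-type values, as at 12.3 percent of all probe sets, and the log2 fold change was −0.33 (SE 0.09, unadjusted p = 0.0065, adjusted p = 0.15). Rdx at 1416180_a_at had the opposite sign, with 11.6, 15.04 and 13.3 against 10.1, 11.6 and 12.7. It was higher in the KRAP-/- mouse of every pair, which no other member probe set was and 15.3 percent of all probe sets were, and its log2 fold change was 0.21 (SE 0.11, adjusted p = 0.42).

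Msn, which is expressed mainly by endothelial and blood cells in liver, read 12.6, 12.7 and 11.4 in KRAP-/- liver and 13.2, 17.8 and 12.1 in wild-type liver at 1421814_at. Only wild-type mouse 2 lay apart from the other 5, and the log2 fold change was −0.21 (SE 0.12, adjusted p = 0.47). At the dimmer 1450379_at Msn read 1.74, 2.06 and 2.10 against 2.20, 2.90 and 2.91. There KRAP-/- liver was lower without overlap, as at 12.3 percent of all probe sets, and the log2 fold change was −0.43 (SE 0.20, adjusted p = 0.35).

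Ezr, which is found mainly in bile duct cells rather than hepatocytes, read 6.64, 6.17 and 5.85 in KRAP-/- liver and 7.71, 8.96 and 5.72 in wild-type liver at 1456725_x_at. The lowest of the 6 values was in wild-type mouse 3, and the log2 fold change was −0.24 (SE 0.15, 95% interval −0.57 to 0.09, adjusted p = 0.48). At 1450850_at it was −0.06 (SE 0.22, adjusted p = 0.93), with signals of 2.06 to 2.84 in KRAP-/- liver and 2.20 to 3.04 in wild-type liver.

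Myo5b encodes the motor that carries recycling endosomes to the canalicular membrane. Its brightest probe set, 1452298_a_at, read 7.83, 7.24 and 7.67 in KRAP-/- liver and 8.48, 7.52 and 7.08 in wild-type liver. The groups overlapped, and the log2 fold change of −0.02 (SE 0.12, 95% interval −0.30 to 0.26, adjusted p = 0.96) turned to 0.051 with quantile normalization and 0.031 with the values as deposited. At 1437698_at Myo5b read 3.02, 2.39 and 3.15 against 3.29, 3.92 and 3.22. Here KRAP-/- liver was lower without overlap, as at 12.3 percent of all probe sets, with a log2 fold change of −0.29 (SE 0.19, adjusted p = 0.53). The third probe set, 1441104_at, lay between 0.0787 and 0.983 on the 6 arrays and was too dim to be fitted.

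Krt8 and Krt18 encode the keratin pair that hepatocytes make, a type II and a type I protein that form filaments together. Krt18 at 1448169_at had signals of 80.9, 66.5 and 80.9 in KRAP-/- liver and 117, 92.0 and 91.7 in wild-type liver. The groups did not overlap, with wild-type mouse 1 well above the others. Krt18 differed by −0.39 on the log2 scale (SE 0.09, 95% interval −0.60 to −0.18), with an unadjusted p of 0.0021 and an adjusted p of 0.085.

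Krt8 had 3 probe sets. The brightest, 1435989_x_at, read 81.7, 69.7 and 70.1 in KRAP-/- liver and 124, 85.5 and 77.7 in wild-type liver. Every KRAP-/- mouse was below its littermate, and the groups overlapped only because KRAP-/- mouse 1 was above wild-type mouse 3. The difference was −0.35 on the log2 scale (SE 0.10, adjusted p = 0.15), −0.38 (adjusted p = 0.096) at 1420647_a_at and −0.33 (adjusted p = 0.19) at 1423691_x_at. The 3 probe sets read the same RNA extracts and are not replicates.

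The ratio of KRAP-/- to wild-type was 0.693, 0.723 and 0.882 for Krt18 and 0.661, 0.815 and 0.902 for Krt8, so pair 3 showed the smallest difference for both keratins. Without pair 3 both passed the test, Krt18 with −0.50 (adjusted p = 0.018) and Krt8 with −0.45 (adjusted p = 0.047). Without pair 1 the values were −0.32 (adjusted p = 0.22) for Krt18 and −0.22 (adjusted p = 0.45) for Krt8. The 2 genes are neighbours on chromosome 15, with 0 protein-coding genes between them. Their RefSeq windows of 250 bases before the start are shown because the 2 genes are neighbours and both were lower in every pair.

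Krt8 (GRCm38.p6, chr15:102004343-102004592, minus strand): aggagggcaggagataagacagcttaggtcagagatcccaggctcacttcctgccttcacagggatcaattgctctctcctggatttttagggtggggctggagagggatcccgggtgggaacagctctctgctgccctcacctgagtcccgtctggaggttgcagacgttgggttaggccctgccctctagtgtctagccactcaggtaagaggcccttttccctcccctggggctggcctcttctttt
Krt18 (GRCm38.p6, chr15:102027966-102028215, plus strand): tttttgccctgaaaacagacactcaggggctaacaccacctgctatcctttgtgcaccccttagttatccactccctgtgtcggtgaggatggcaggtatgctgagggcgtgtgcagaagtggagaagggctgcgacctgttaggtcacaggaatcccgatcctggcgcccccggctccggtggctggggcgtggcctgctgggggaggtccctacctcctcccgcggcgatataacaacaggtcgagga

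Neither window held a GC box, a TATA box (TATAAA), an AP-1 site or a CArG box, so no letters are in capitals. The TATA box was in 12.4 percent of all windows.

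Ctnnd1 encodes p120 catenin, which binds the cytoplasmic tail of cadherins and keeps them at the cell surface. At 1437448_s_at its signals were 8.21, 8.28 and 6.73 in KRAP-/- liver and 14.8, 11.5 and 10.5 in wild-type liver. All 3 KRAP-/- values were below all 3 wild-type values, and the ratio was 0.555, 0.721 and 0.644 in the 3 pairs. The mean was 7.74 ± 0.874 (SD, n = 3) against 12.2 ± 2.27 (SD, n = 3). The fall of 0.65 on the log2 scale (95% interval −0.93 to −0.37, adjusted p = 0.039) is a fold of 0.636.

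The other Ctnnd1 probe sets did not show this difference. At 1422450_at the signals were 4.68, 6.66 and 6.16 in KRAP-/- liver and 8.79, 6.67 and 5.57 in wild-type liver. The ratio there was 0.533, 0.999 and 1.11 in the 3 pairs, with a log2 fold change of −0.25 (SE 0.20, adjusted p = 0.60). At 1445830_at the signals were 1.14, 1.46 and 1.62 against 1.47, 1.30 and 0.980, a log2 fold change of 0.18 (SE 0.31, adjusted p = 0.84). The call of Ctnnd1 ended in 8 of 14 alternatives, with the values as deposited (adjusted p = 0.056), with quantile normalization (0.064), without the littermate block (0.070), without pair 1 (0.15), with all probe sets tested (0.38), without an intensity trend (0.42), with the mean over the 3 probe sets (0.57) and without probe sets named _a_at, _s_at or _x_at (0.60). That mean takes in the other probe sets, and without probe sets of those names Ctnnd1 was read at 1422450_at, not at 1437448_s_at. The probes of an _s_at set can bind transcripts of other genes too.

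Ctnnd1 and Itprid2 both lie on chromosome 2, with 16 protein-coding genes between them. Of those, 11 were tested at their brightest probe set, and limma called 0, with 0 at an unadjusted p under 0.05. Over all genes limma called 1.31 percent lower and 0.333 percent higher. At an unadjusted p under 0.05 the shares were 11.8 percent lower and 3.93 percent higher. The targeting vector was built from DNA of a strain other than that of the backcross. The deletion and any such DNA left near it cannot be told apart here, also for Ctnnd1. RefSeq gives 2 starts for Ctnnd1, and the windows before them are shown because the probe sets of this gene differ and its transcripts begin at more than 1 place. Capitals mark the TATA box.

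Ctnnd1 (GRCm38.p6, chr2:84658978-84659227, minus strand): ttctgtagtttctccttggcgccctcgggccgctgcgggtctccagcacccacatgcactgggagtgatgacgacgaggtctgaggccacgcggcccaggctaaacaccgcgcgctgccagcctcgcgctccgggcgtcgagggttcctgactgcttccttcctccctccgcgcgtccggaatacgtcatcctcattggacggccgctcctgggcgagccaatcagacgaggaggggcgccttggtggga
Ctnnd1 (GRCm38.p6, chr2:84650741-84650990, minus strand): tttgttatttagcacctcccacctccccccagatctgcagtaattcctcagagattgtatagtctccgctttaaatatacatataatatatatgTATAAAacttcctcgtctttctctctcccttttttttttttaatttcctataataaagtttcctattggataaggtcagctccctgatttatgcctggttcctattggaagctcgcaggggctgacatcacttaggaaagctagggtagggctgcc

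The first window held none of the 4 motifs, and the second held 1 TATA box. The sources used here do not place the 3 probe sets on transcripts from either start.

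Cdh1 encodes E-cadherin, a cadherin of epithelial adherens junctions. Its probe set, 1448261_at, read 15.97, 14.1 and 17.5 in KRAP-/- liver and 18.3, 26.9 and 19.9 in wild-type liver. The groups did not overlap, and wild-type mouse 2 stood above the other 5. Cdh1 differed by −0.44 on the log2 scale (SE 0.15, 95% interval −0.78 to −0.10, unadjusted p = 0.017, adjusted p = 0.22). The value was −0.19 (adjusted p = 0.68) without pair 2 and −0.57 (adjusted p = 0.084) without pair 3. Another cadherin gene, Cdh2, read 51.4, 54.4 and 53.8 in KRAP-/- liver and 43.9, 49.1 and 46.0 in wild-type liver. It was higher in all 3 pairs, as were 11.6 percent of all genes. Its log2 fold change was 0.20 (SE 0.08, unadjusted p = 0.039, adjusted p = 0.31).

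Other genes of the same structures were read from 9 lists at the brightest probe set of each gene. Of 106 genes tested, 2 fell, Tmsb10 and Mal2, 0 rose and 104 did not pass, against 1.31 percent of all genes called lower and 0.333 percent called higher. At an unadjusted p under 0.05, 20 of 106 were lower, against 11.8 percent of all genes, and 2 were higher, against 3.93 percent. Their median log2 fold change was −0.12, beside −0.08 over all genes, with 74 of 106 below 0 against 62.1 percent of all genes.

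Tmsb10 encodes thymosin beta 10, which binds actin monomers. At 1437185_s_at it read 48.0, 50.3 and 51.2 in KRAP-/- liver and 75.4, 72.4 and 66.5 in wild-type liver, with no overlap. The log2 fold change was −0.52 (SE 0.09, adjusted p = 0.027), and 1 of its 5 probe sets passed. The call ended without pair 1 (−0.45, adjusted p = 0.062), with the values as deposited (−0.47, adjusted p = 0.10), with the mean over probe sets (−0.51, adjusted p = 0.15) and without probe sets named _a_at, _s_at or _x_at (adjusted p = 0.40 at the 1 dim probe set then read). It was the 1 called gene among 26 tested of actin assembly and turnover, a list with a median of −0.12.

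Mal2 encodes a membrane protein of transcytosis, the route by which hepatocytes send proteins to the canaliculus. It read 16.4, 14.2 and 14.1 in KRAP-/- liver and 21.5, 20.7 and 22.2 in wild-type liver, with no overlap and a tight spread among the wild-type mice. The log2 fold change was −0.53 (SE 0.10, adjusted p = 0.046). Its call ended on leaving out pair 3 (adjusted p = 0.066) or pair 2 (0.080), after quantile normalization (0.071) and in the values as deposited (0.089). Mal2 was the 1 called gene among 16 tested of polarity and apical recycling, a list with a median of −0.03. Without an intensity trend, or with all probe sets tested, neither Mal2 nor Tmsb10 passed.

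In the other 7 lists limma called 0 of 64 genes, against 1.31 percent of all genes called lower and 0.333 percent called higher. At an unadjusted p under 0.05, 12 of the 64 were lower, against 11.8 percent of all genes, and 2 were higher, against 3.93 percent. The 3 other actins tested had a median of −0.15, and the skeletal muscle actin Acta1 had the largest value, −1.19 (SE 0.71, adjusted p = 0.48), with a ratio of 0.126, 0.242 and 2.74 in the 3 pairs; the cardiac actin Actc1 had −0.15 (adjusted p = 0.89). Acta1 passed without pair 3, at −2.52 (adjusted p = 0.0021), and was −0.30 (adjusted p = 0.92) without pair 1 and −0.77 (adjusted p = 0.76) without pair 2, so its value depended on each pair. The signals of Acta1 were dim, at 0.558 to 0.805 in KRAP-/- liver and 0.294 to 4.42 in wild-type liver. Genes of the apical cortex and microvillus (8 tested) had a median of −0.25, with Eps8, an actin capping and bundling protein of microvilli, at −0.74 (adjusted p = 0.19; −0.45 without pair 1 and −0.093 with the mean over its probe sets) and Pdzk1, a scaffold of apical transporters, at −0.31 (adjusted p = 0.23). Myosin II, tropomyosin and crosslinker genes (18 tested) had a median of −0.13, with the filamin Flna at −0.54 (adjusted p = 0.22) and the non-muscle myosin Myh10 at −0.38 (adjusted p = 0.24).

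The other keratins and intermediate filament genes (10 tested) had a median of −0.20, and the values furthest from 0 belonged to Krt7 (−0.89, SE 0.80, adjusted p = 0.65) and Krt19 (−0.54, SE 0.40, adjusted p = 0.57), the keratins of bile ducts. Tight junction genes (12 tested) had a median of −0.19. Among them Cgn, the plaque protein cingulin, had −0.52 (SE 0.14, adjusted p = 0.12) with ratios of 0.632, 0.791 and 0.674, and Marveld3 had −0.38 (adjusted p = 0.73, and −0.17 without pair 3). Marveld3 was dim, at 0.628 to 0.744 in KRAP-/- liver and 0.593 to 1.11 in wild-type liver. The junctions nearest to Ctnnd1 and Cdh1 lay on either side of 0. Adherens junction genes (8 tested) had a median of 0.02, with Nectin1 at −1.26 (SE 0.48, adjusted p = 0.27, with −0.45 without pair 2 and −0.65 with the mean over its probe sets) and Nectin3 at 0.30 (SE 0.11, adjusted p = 0.24, with 0.17 with that mean). Nectin1 was dim, at 0.313 to 2.22 in KRAP-/- liver and 1.88 to 2.29 in wild-type liver. Desmosome genes (5 tested) had a median of 0.02, with Dsc2 at 0.25 (adjusted p = 0.36) and Perp at 0.11 (adjusted p = 0.60).

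**Figure D4:**
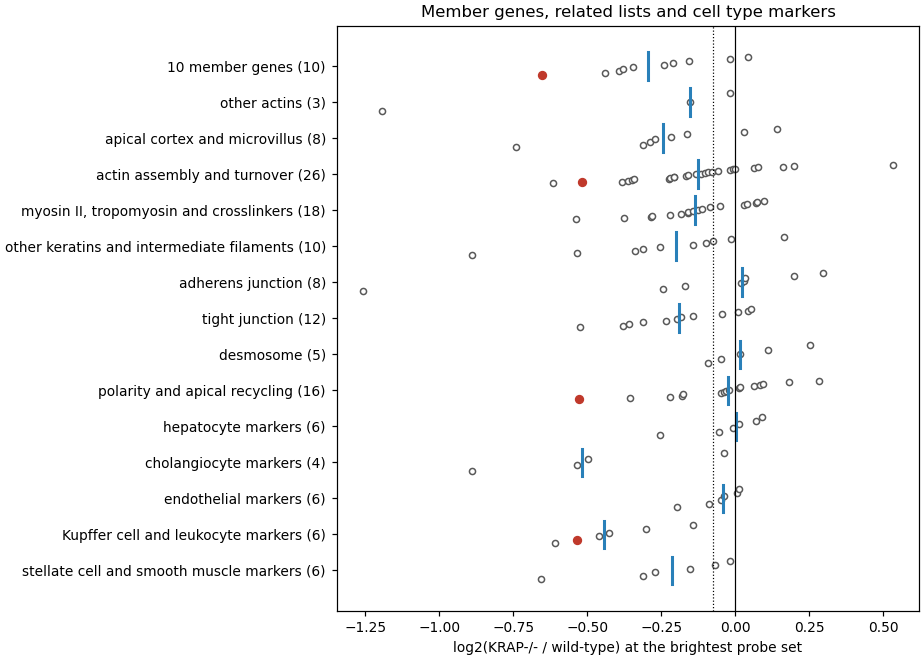
Log2 fold change at the brightest probe set (x axis) of the 10 member genes, of the genes of the 9 related lists and of 5 sets of cell type markers (y axis, number tested in brackets), with 1 point per gene, filled red where it passed the threshold, blue bars for list medians and a dotted line for the median of all genes, −0.08. The 10 member genes have a median of −0.29 and the Kupffer cell and leukocyte markers one of −0.44.

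Markers of the other liver cell types were read beside these values. Kupffer cell and leukocyte markers summed to 137 to 149 in KRAP-/- liver and 165 to 192 in wild-type liver. All 6 lay below 0 on the log2 scale, against 62.1 percent of all genes, with a median of −0.44. Among them Clec4f, a lectin of Kupffer cells, fell from 31.6, 34.8 and 34.1 in wild-type liver to 22.5, 24.0 and 22.9 in KRAP-/- liver, a log2 fold change of −0.54 (SE 0.09, adjusted p = 0.025), and the other 5 did not pass. At an unadjusted p under 0.05, 5 of 6 were lower, against 11.8 percent of all genes. The call of Clec4f ended with the values as deposited (−0.49, adjusted p = 0.071), without an intensity trend and with all probe sets tested. Stellate cell and smooth muscle markers summed to 20.5 to 23.6 and 24.7 to 30.7, with a median of −0.21. All 6 lay below 0, against 62.1 percent of all genes, and 0 were called. At an unadjusted p under 0.05, 1 of 6 was lower, against 11.8 percent of all genes. Lrat, which makes retinyl esters in stellate cells, was at −0.66 (adjusted p = 0.070, and 0.028 without pair 2). Apart from Lrat, the stellate cell and smooth muscle markers lay between −0.31 (Des) and −0.02 (Acta2). Neither sum overlapped between the groups, which was not particular to these markers. The sums of the apical cortex and microvillus list did not overlap either, at 199 to 229 in KRAP-/- liver and 231 to 274 in wild-type liver. The same held for the lists of myosin II, tropomyosin and crosslinkers and of the tight junction. A sum leans on its brightest genes. In the apical cortex and microvillus list Slc9a3r1 alone read 114 to 144 in KRAP-/- liver and 135 to 178 in wild-type liver, and its own groups overlapped.

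Endothelial markers summed to 49.8 to 54.9 in KRAP-/- liver and 50.4 to 60.1 in wild-type liver, with a median of −0.04 over 6 genes. Bile duct markers were near the limit of the array: the sums were 3.97 to 5.95 and 5.21 to 6.51, Krt7 read 0.108 to 1.36 and Krt19 read 0.564 to 1.78 over the 6 arrays, and Cftr was too dim to be fitted. All 4 that were tested lay below 0, against 62.1 percent of all genes, with a median of −0.52. Limma called 0, with 0 at an unadjusted p under 0.05. Epcam was at −0.04, with ratios of 1.27, 0.685 and 1.07 in the 3 pairs, and Krt7 and Krt19 were each higher in 1 pair. The dim Cftr read 0.527, 0.142 and 0.267 in KRAP-/- liver and 0.0415, 0.0477 and 0.165 in wild-type liver. Of the 4 tested, Sox9, a transcription factor of bile duct cells, was lower in all 3 pairs, as were 26.9 percent of all genes. Its groups did not overlap, as for 15.2 percent of all genes with KRAP-/- liver lower. Sox9 had ratios of 0.671, 0.876 and 0.604 and a log2 fold change of −0.50 (SE 0.23, adjusted p = 0.37). Tmsb10 and Flna are expressed in leukocytes and endothelial cells as well as in hepatocytes, and Msn mainly in endothelial and blood cells. The part of the lower Kupffer and stellate marker values, and of the bile duct marker values, in those of the members, Ezr included, was not tested.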

How the data were processed

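Liver RNA of 6 mice was read on 1 array each. The authors deposited linear signal intensities from the GCOS software, and the algorithm and scaling behind them are not given in the sources used here. Each signal was divided by its array median, floored at 0.1 and taken as log2. With 64 control probe sets left out, 45037 remained, and limma 3.58.1 (R 4.3.3) was run on the 28531 whose mean reached 0.5, blocking on littermate pair, with moderation along an intensity trend and p-values adjusted by Benjamini-Hochberg. The brightest probe set stood for a gene. The fit was also run on simulated data drawn from its own moderated variances, so that run cannot test the intensity trend. The pairing comes from the series' design, which gives littermates; correlations of littermates' deviations from the genotype means were 0.043, 0.0095 and −0.012. Symbols came from the platform annotation, in which 34958 probe sets had 1 symbol, 932 several and 9211 none. Sequences and gene order came from RefSeq (GRCm38.p6); Actb, Myo5b and Cdh1 are named only. Named genes were the 10 members, Itprid2, in each list the genes past the threshold or else the 2 with the largest change, and defining markers. Slc9a3r1 and Cdh2 were named outside this rule. The members and lists were chosen with earlier results of these data known. Some genes of the lists are not reported here. Tables and figures used Python 3.11.15, numpy 2.4.6, pandas 2.3.3, scipy 1.17.1 and matplotlib 3.10.9.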

Additional observations from a re-analysis of the deposited data

How the results depend on the processing

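Over the 10 member genes, 138 values under alternatives were computed: 123 kept direction and side of the threshold, 8 lost the call of Ctnnd1, 2 gained one (Krt8 and Krt18 without pair 3) and 5 turned. Of the member probe sets, 0 passed in place of 1 with all probe sets tested, without probe sets named _s_at, _x_at or _a_at, without an intensity trend, without the replicate block, with quantile normalization and with the values as deposited, and 1 to 5 when a pair was left out. Member genes gave 0 under the same settings and with the mean over probe sets, and 0 to 3 when a pair was left out. Of the other genes, 0 passed in place of 2 with all probe sets tested, without an intensity trend and with the values as deposited, 1 with quantile normalization and 1 with the mean over probe sets, and 2 whichever pair was left out, not always the same genes. Without an intensity trend limma called 0 probe sets of the whole table (3089 at an unadjusted p under 0.05), and with all probe sets tested also 0 (4551), so every call here rests on both settings. The 1.5-fold rule gave 0 member probe sets, and 2 without pair 2.

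The log2 fold change of Ctnnd1 was −0.65 with all probe sets tested, without an intensity trend and without the replicate block, −0.24 with the mean over probe sets, −0.25 without probe sets of those names, −0.59 with quantile normalization, −0.60 with the values as deposited and −0.74 to −0.55 when a pair was left out. The replicate block changed no other call of a member or named gene. Myo5b turned to 0.051 with quantile normalization and 0.031 with the values as deposited. Leaving out a pair turned, with their ranges, Myo5b (−0.086 to 0.029; 4.2e-05 without pair 2), Actb (−0.11 to 0.14), Ezr at 1450850_at (−0.26 to 0.20), Ctnnd1 at 1422450_at (−0.45 to 0.072) and at 1445830_at (−0.099 to 0.44), Actc1 (−0.38 to 0.077), Krt19 (−0.93 to 0.026) and Krt7 (−1.88 to 0.33). Leaving out a pair moved other values that were not called by over 1.5 times, with the direction kept: Acta1 (−2.52 to −0.30), Nectin1 (−1.88 to −0.45), Eps8 (−0.998 to −0.45), Myh10 (−0.48 to −0.25), Marveld3 (−0.69 to −0.17) and Perp (0.041 to 0.18) among them. The cause of these changes was not tested. No value could be had for Actg1 and Krt8 without probe sets of those names. The number of arrays, 3 a genotype, limits the precision, and whether a signal near the floor is above background is not known.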
